A study of Rattus norvegicus with 372 samples.

Results

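Acetaminophen at 400 µM, the lower of the 2 concentrations given of this analgesic, was compared with vehicle in primary rat hepatocytes by the TempO-Seq assay, in which pairs of detector oligos are ligated on a target RNA, amplified and counted by sequencing. The 400 µM wells were taken by the labelled chemical and concentration, which gave 12 of the 372 libraries in the series, from 6 wells, since the lysate of every well was read by 2 probe panels. The ST assay targets a selected set of genes meant to stand for the whole transcriptome and the WT assay targets the transcriptome itself; the WT assay was the main readout here and the ST assay the check. The hepatocytes came from 2 male Wistar rats, 1 rat for each batch, and were held in 96-well plates between layers of collagen in a medium with insulin, dexamethasone and epidermal growth factor. They were exposed for 24 h to 400 µM acetaminophen, 10000 µM acetaminophen or the vehicle, 0.5% DMSO, which all wells carried. Each batch held 3 wells of 400 µM acetaminophen, and there were 3 vehicle wells in batch 1 and 6 in batch 2. Wells of 1 batch shared a rat and were technical replicates, so that a p-value below describes the spread between wells and 2 animals stand behind every statement. The paper states that libraries of batch 2 were built and sequenced independently of batch 1. Rat, library and sequencing run, plate layout and number of vehicle wells thus cannot be told apart between batches. Where rats are compared below, the comparison is between batches in this sense.

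Acetaminophen is cleared in the liver mainly by glucuronidation and sulfation, while CYP2E1 and related enzymes turn a part of it into the reactive quinone imine NAPQI, which glutathione captures until it runs out. Hepatocytes in culture slowly lose their liver-specific genes and gain genes of the actin cytoskeleton, many of which are driven by serum response factor (SRF) through a DNA element called the CArG box, and growth factors in the medium can bring some of them into DNA synthesis, which E2F factors prepare. The nuclear receptor PPARα, active in hepatocytes, drives the genes of fatty acid uptake and oxidation.

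Plate position set the limits of the comparison. In batch 1 the acetaminophen wells stood on plate 5 and all vehicle wells on plate 4, so that plate and treatment cannot be told apart there; in batch 2 the acetaminophen wells stood on plate 3 together with 3 of the 6 vehicle wells, the other 3 being on plate 2. Of the other chemicals at low concentration on the acetaminophen plate, 4 (18 µM chloramphenicol, 12 µM indomethacin, 0.6 µM ketoconazole and 4 µM sulfasalazine), called plate mates below, gave a second reference that shared the plate in both batches but was itself treated; the low concentration of WY14643, 8 µM, stood on the same plates and was left out of that reference because this chemical is a PPARα agonist. Indomethacin, which was kept, is itself known to activate PPAR receptors. The paper reports enrichment of peroxisome and metabolic gene sets for indomethacin and sulfasalazine at both concentrations, and proposes transcriptional effects shared with WY14643. By WT the mean of the 4 plate mates differed from vehicle in 688 genes, and acetaminophen in 141 with fewer wells. WT libraries of acetaminophen wells held 2709504 to 5824020 counts in batch 1 and 7680992 to 8488346 in batch 2, against 5492941 to 8264980 and 5788931 to 7199877 in vehicle wells, the first well of batch 1 being the shallow one. Hepatocyte markers, 15 genes, summed to between 43510 and 63190 CPM (counts scaled to 1000000 per library by TMM) in all these wells and none of them was at 0 throughout, whereas the 12 Kupffer cell markers summed to between 66.9 and 126 CPM. The 8 cholangiocyte markers summed to 95.5 to 109 CPM under acetaminophen and 117 to 134 CPM in vehicle wells of batch 1, without overlap, and to 113 to 132 and 124 to 148 CPM in batch 2, with overlap. The 10 endothelial markers summed to 7.06 to 8.59 against 5.36 to 9.07 CPM in batch 1 and to 6.13 to 7.82 against 4.45 to 6.05 CPM in batch 2, which did not overlap; the part of these cells in the results was not tested. Stellate cell and fibroblast markers, 11 genes, summed to 441 to 562 CPM in acetaminophen and 512 to 533 CPM in vehicle wells of batch 1, and to 289 to 350 and 330 to 442 CPM in batch 2; in lysates a smaller number of cells of a type and less RNA per cell cannot be told apart.

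At this concentration few genes were differentially expressed (DEGs, edgeR quasi-likelihood test, Benjamini-Hochberg adjusted p under 0.05). In the WT assay 141 of 10191 genes tested, or 1.38%, passed with both batches in the fit, 73 of them higher (0.716%) and 68 lower (0.667%) than vehicle. Their log2 fold changes (L2FC) ran from 0.20 to 1.67 in size with a median of 0.68, and 39 reached 1. Batch 1 gave 29 DEGs by itself (0.285%) and batch 2 gave 227 (2.23%). The ST assay called 89 of 1760 genes (5.06%), 63 higher and 26 lower, with 8 in batch 1 (0.455%) and 187 in batch 2 (10.6%). The counts of a batch moved with single wells. In batch 1 the WT count was 9 without the third acetaminophen well and 73 without the second, and in batch 2 it was 65 without the second, out of ranges of 9 to 73 and 65 to 242 with any 1 well left out.

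Nearly all of the joint DEGs moved the same way in the 2 rats, which the joint fit favours by construction. Of the 141 WT genes 139 had the same sign in both batches, Rfc5 and Slc4a11 being the exceptions. A view that does not share wells takes the genes called in 1 rat and reads them in the other. Of the 29 DEGs of batch 1, 24 (82.8%) had the same sign in batch 2 and 13 (44.8%) also an unadjusted p under 0.05 there, against 12.7% of all genes with such a p in batch 2. Of the 227 DEGs of batch 2, 161 (70.9%) had the same sign in batch 1, against 46.0% over all genes, and 51 (22.5%) had the same sign and an unadjusted p under 0.05 there, against 13.7% of all genes with such a p. The 7 genes that passed in each rat by itself were Ces1d, Tsku and Decr1, which rose, and Acta1, Tpm1, Fzd5 and Setd7, which fell.

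Both assays tested 43 of the 141 WT DEGs and 25 of these were DEGs in both, of which 24 had the same sign in each batch and each assay. They are shown in the plot of the genes called by both assays; the WT call of Mad2l1 held in 5 of 15 fits with 1 well left out. The exception was Rfc5, a subunit of the clamp loader of DNA replication, with a WT L2FC of -0.01 in batch 1 and 0.92 in batch 2. It was also 1 of the 9 genes of 10191 (0.0883%) whose effect differed between the batches. The 15 that rose were the carboxylesterase Ces1d, the ubiquitin-conjugating enzyme Ube2t, the histone chaperone Asf1b, the secreted protein Tsku, LOC102549061, the DNA polymerase Pole, Gas2l3, the zinc finger gene Zfp354a, the spindle checkpoint gene Mad2l1, Slc27a2, Hells, Decr1, Mcm4, catalase (Cat) and Hsd17b10. The 9 that fell were Acta1, Tagln, the organic anion transporter Slc22a8, villin (Vil1), Cnn2, Actn1, Agrn, Tmem43 and Blmh. The ST libraries came from the same lysates, so the second assay repeats the measurement and not the exposure.

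**Figure D1:**
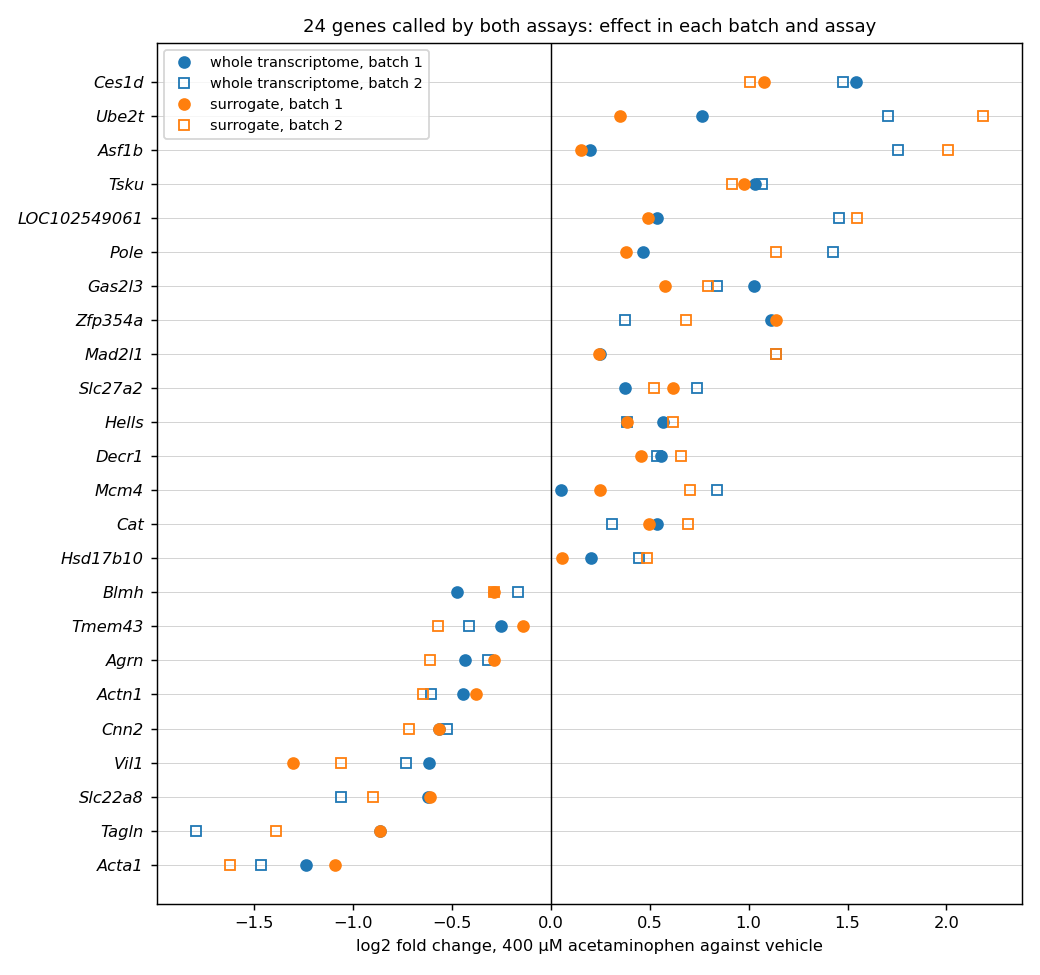
L2FC of 400 µM acetaminophen against vehicle for the 24 genes called by both assays with the same sign in each batch and assay. Each row is a gene and each mark 1 batch in 1 assay; Asf1b, at 0.20 and 1.76 in the WT assay, shows the wide gap between the batches that many of the cell cycle genes had, while Tsku, at 1.03 and 1.07, shows almost none.

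Genes of the actin cytoskeleton were among those that fell. Of 43 tested genes on a list of actin cytoskeleton genes and SRF targets, composed after the values were seen, 14 fell and 0 rose in the WT assay, with a median L2FC of -0.26 over the list (-0.36 in batch 1, -0.24 in batch 2, 0.01 over all genes); over all genes 0.667% fell. In the ST assay 5 of 14 fell, beside 26 of 1760 over all genes. The 14 were Tpm1, Acta1, Tagln, Lmcd1, Vasp, Vil1, Actn1, Afap1, Pdlim5, Ctnna1, Pdlim2, Thbs1, Ankrd1 and Cnn2, and the number ranged from 10 to 14 when any 1 well was left out.

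Acta1, skeletal muscle actin, fell in both assays. Its WT levels in batch 1 were 38.3, 80.1 and 83.0 CPM under acetaminophen and 168, 159 and 151 CPM in vehicle wells. In batch 2 they were 89.6, 83.7 and 89.1 CPM, against a lowest value of 204, a median of 243 and a highest of 277 CPM in the 6 vehicle wells. The groups did not overlap in either rat, and the same held in the ST assay. The L2FC was -1.48 (SE 0.22, adjusted p = 1.43e-06), with -1.24 in batch 1 and -1.46 in batch 2, and the ST value was -1.49.

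Tpm1, a tropomyosin that winds along actin filaments, fell alongside it. Its levels were 347, 338 and 314 CPM against 717, 697 and 687 CPM in batch 1. In batch 2 they were 280, 333 and 331 CPM against 516, 643 and 675 CPM as lowest, median and highest vehicle value. With no overlap in either batch, the L2FC came to -1.05 (SE 0.16, adjusted p = 1.43e-06), and it was -1.09 and -0.98 by batch.

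Tagln, the smooth muscle protein transgelin, is also a marker on the stellate cell list. It stood at 38.7, 59.3 and 72.4 CPM against 98.6, 112 and 101 CPM in batch 1 and at 33.1, 18.1 and 21.4 CPM against 52.7, 84.0 and 117 CPM in batch 2. All acetaminophen wells lay below all vehicle wells of their batch, with an L2FC of -1.48 (SE 0.26, adjusted p = 0.000109). It was the only one of the 5 stellate cell and fibroblast markers tested that passed, and the part of these cells in its fall was not tested.

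Calponin 2 (Cnn2), which binds actin filaments, gave a smaller difference, with 19.2, 29.3 and 26.4 CPM against 38.2, 39.3 and 34.1 CPM in batch 1 and 30.5, 34.0 and 37.3 CPM against 42.2, 49.6 and 54.0 CPM in batch 2. The wells separated in both rats, and the L2FC was -0.57 (SE 0.16, adjusted p = 0.0444), a call that held in 4 of 15 fits with 1 well left out. Villin, which bundles actin in the microvilli that line bile canaliculi, read 16.1, 17.7 and 12.2 CPM against 24.1, 22.3 and 23.2 CPM in batch 1 and 11.2, 10.6 and 13.2 CPM against 15.0, 20.0 and 22.1 CPM in batch 2, again without overlap. Its L2FC was -0.69 (SE 0.15, adjusted p = 0.00391) and -1.19 in the ST assay. Lmcd1, a LIM domain cofactor, read 0.342, 3.64 and 2.00 CPM against 4.92, 4.82 and 3.92 CPM in batch 1 and 1.34, 1.76 and 1.11 CPM against 3.35, 4.37 and 6.22 CPM in batch 2, which gave an L2FC of -1.43 (SE 0.29, adjusted p = 0.00149) at a low level.

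The promoters of Acta1 and Cnn2 are shown because they were the 2 of 53 promoters of genes that fell (3.77%) to hold a CArG box in the 250 bases before the gene start; the box was found in 1.22% of the 7535 promoters of genes tested and in 1.5% of all 27457 promoters of the table. Sequences are from RefSeq, assembly GRCr8, 5′ to 3′ on the gene's strand, with the CArG box, read on both strands, in capitals. That of Acta1 lies on the minus strand at chr19:68784195-68784444, with the box 94 bases before the start, and that of Cnn2 on the minus strand at chr7:10370313-10370562, with the box 71 bases before the start.
Acta1: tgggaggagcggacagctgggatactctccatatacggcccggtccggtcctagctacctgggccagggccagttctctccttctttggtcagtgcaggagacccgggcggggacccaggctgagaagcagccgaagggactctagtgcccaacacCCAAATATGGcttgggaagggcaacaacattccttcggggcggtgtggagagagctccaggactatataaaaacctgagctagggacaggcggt
Cnn2: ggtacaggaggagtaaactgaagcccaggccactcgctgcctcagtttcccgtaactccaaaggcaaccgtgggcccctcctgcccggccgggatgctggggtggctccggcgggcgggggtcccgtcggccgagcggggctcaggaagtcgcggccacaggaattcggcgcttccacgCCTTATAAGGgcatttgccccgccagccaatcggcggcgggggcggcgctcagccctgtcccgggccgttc
A match to the motif is a description of these letters; binding was not measured. Promoters were matched by symbol and were found for 107 of the 141 DEGs.

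Genes of DNA replication and mitosis were among those that rose, with higher median values in batch 2 than in batch 1. On the cell cycle list all 20 tested genes had a positive L2FC, against 5333 of 10191 over all genes, but only 3 passed the test, the mitotic kinases Aurkb and Aurka and the replicative helicase subunit Mcm4. The median L2FC was 0.66, made of 0.08 in batch 1 and 0.91 in batch 2. The ST assay called 9 of 21 (Mki67, Ccne2, Mcm2, Mcm3, Mcm4, Mcm5, Mcm6, Rrm1 and E2F1). Over all genes 0.716% rose in the WT assay and 63 of 1760 in the ST assay. On 2 longer lists composed after the values were seen, 17 of 51 genes of DNA replication, histones and homologous repair and 14 of 40 genes of mitosis and chromosome segregation rose in the WT assay and none fell, with medians of 0.55 and 0.72. By batch these were 0.14 and 0.90 for replication, and 0.31 and 0.91 for mitosis.

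Single wells of batch 2 differed widely for these genes. The 20 tested cell cycle genes summed to 452, 432 and 270 CPM in the 3 acetaminophen wells, against 213 to 272 CPM with a median of 240 in the vehicle wells, so that the third well fell within the vehicle range. In batch 1 the sums were 358, 397 and 333 CPM against 352, 302 and 379 CPM, which overlapped. The ST assay gave the same picture with 1841, 1699 and 1094 CPM against 840 to 1190 CPM in batch 2. The number of WT calls on the list was 7 without the third acetaminophen well of batch 2, 1 without the first, and 1 to 8 with any well left out, the 8 being without the third vehicle well of batch 1; the ST calls were 13, 2 and 2 to 13. On the replication list the WT calls ranged from 8, without the second acetaminophen well of batch 2, to 21, and on the mitosis list from 6, without the first, to 19. The WT sums of the mitosis genes under acetaminophen were 500.5, 467 and 359 CPM in batch 1. In batch 2 they were 489, 403 and 234 CPM, from the first to the third well. Vehicle wells of batch 2 read 250, 190 and 148 CPM on plate 2 and 243, 203 and 157 CPM on plate 3. Those of batch 1 read 340, 269 and 401 CPM. The part of well position in these sums was not tested.

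Bard1, the partner of Brca1 in homologous repair, stood at 4.45, 3.64 and 3.80 CPM against 1.92, 1.25 and 2.39 CPM in batch 1, without overlap. In batch 2 it read 6.03, 4.66 and 1.48 CPM against 0.670, 0.999 and 1.79 CPM, where the third well fell within the vehicle range. The L2FC was 1.57 (SE 0.30, adjusted p = 0.000482).

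Exo1, an exonuclease of mismatch repair and of DNA end resection, read 10.3, 5.90 and 8.60 CPM against 3.24, 4.11 and 7.16 CPM in batch 1, where 1 acetaminophen well lay within the vehicle range. In batch 2 it read 7.70, 8.32 and 3.44 CPM against 0.724, 1.41 and 2.14 CPM, and all wells separated. Its L2FC was 1.48 (SE 0.29, adjusted p = 0.00105), with 0.75 and 2.10 by batch.

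Asf1b, which hands histones to newly made DNA, overlapped in batch 1 at 3.08, 6.94 and 3.80 CPM against 4.68, 4.46 and 3.24 CPM. In batch 2 it stood above every vehicle well, at 9.60, 16.3 and 6.89 CPM against 1.67, 2.87 and 5.36 CPM. The joint L2FC of 1.20 (SE 0.25, adjusted p = 0.00201) thus combined 0.20 in batch 1 with 1.76 in batch 2. The difference between the batches for this gene, 1.54 (SE 0.45), did not pass its test (adjusted p = 0.172).

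Melk, a kinase of dividing cells, had the largest joint L2FC among the DEGs, 1.67 (SE 0.34, adjusted p = 0.00158). Its wells read 9.92, 3.47 and 1.60 CPM against 1.44, 2.14 and 2.05 CPM in batch 1 and 6.92, 3.91 and 1.11 CPM against 0.693, 1.09 and 1.43 CPM in batch 2. In both rats the third acetaminophen well lay within the vehicle range. Fam111a, a protease of the replication fork, and Ube2t, of the Fanconi anaemia repair pathway, rose with L2FC of 1.58 (SE 0.36) and 1.36 (SE 0.34). Sgo2, Cenpw, Ticrr and Kif18b, which guard cohesin, build the centromere, start replication and move chromosomes, had L2FC between 1.22 and 1.42. With 1 well left out the calls of Sgo2 and Kif18b held in 7 and 11 of 15 fits. In the ST assay Cenpw did not pass, at 0.75 (adjusted p = 0.216). The wells of Ticrr separated in both rats, those of Fam111a and Sgo2 in batch 1 alone, those of Cenpw in batch 2 alone, and those of Ube2t and Kif18b in neither. None of these 6 genes exceeded 8.26 CPM in any well of the comparison, and Sgo2 in particular had vehicle wells between 0.145 and 1.52 CPM in batch 2.

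Hells, a chromatin remodeller of the helicase family, was the more abundant example. It stood at 61.9, 39.7 and 46.8 CPM against 29.9, 35.4 and 32.9 CPM in batch 1, and at 30.8, 20.6 and 19.3 CPM against 15.9, 18.4 and 18.7 CPM in batch 2. All acetaminophen wells lay above all vehicle wells in both rats, and the L2FC was 0.57 (SE 0.14, adjusted p = 0.0133).

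The promoters of Bard1 and Hells are shown as the named examples among 4 of 54 promoters of genes that rose (7.41%: Bard1, Fastkd3, Hells and Slbp) that held an E2F site, searched as TTTCCCGC or TTTGGCGC on both strands of the same 250 bases; 2.59% of promoters of genes tested and 1.26% of all promoters of the table held one. Capitals mark the site. That of Bard1 lies on the minus strand at chr9:80143756-80144005 with the site 205 bases before the start, and that of Hells on the plus strand at chr1:246113879-246114128 with the site 29 bases before the start.
Bard1: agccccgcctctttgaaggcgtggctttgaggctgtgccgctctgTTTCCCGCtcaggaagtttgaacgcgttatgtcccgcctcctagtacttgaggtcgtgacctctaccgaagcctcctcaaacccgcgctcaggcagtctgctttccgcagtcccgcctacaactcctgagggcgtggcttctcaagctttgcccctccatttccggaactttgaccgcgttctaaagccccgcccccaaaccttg
Hells: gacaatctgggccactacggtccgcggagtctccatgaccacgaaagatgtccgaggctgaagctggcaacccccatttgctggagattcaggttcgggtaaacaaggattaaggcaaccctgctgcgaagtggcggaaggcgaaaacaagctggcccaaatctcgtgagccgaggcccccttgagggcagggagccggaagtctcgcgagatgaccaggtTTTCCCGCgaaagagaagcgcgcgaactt
A CArG box was in 0 of the 54 promoters searched among genes that rose, and an E2F site in 0 of the 53 among genes that fell; at the shares over the genes tested, such counts say nothing about these sets.

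Ces1d, a carboxylesterase that hydrolyses esters and triglycerides, was the DEG with the lowest adjusted p. It read 17.1, 30.7 and 33.0 CPM against 8.89, 10.0 and 9.21 CPM in batch 1 and 26.0, 33.4 and 46.4 CPM against 9.15, 12.8 and 15.7 CPM in batch 2. No wells overlapped, and its L2FC was 1.53 (SE 0.21, adjusted p = 9.17e-08), with 1.54 and 1.48 by batch and 1.11 in the ST assay. Carboxylesterase genes form a family of close copies, and how its probes share reads with them was not tested.

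Tsku, a secreted protein made by the liver, read 104, 126 and 139 CPM against 66.5, 57.7 and 54.9 CPM in batch 1. In batch 2 the values were 124, 79.5 and 97.1 CPM against 40.5, 49.3 and 53.1 CPM. The wells separated in both rats and both assays, at an L2FC of 1.13 (SE 0.19, adjusted p = 2.56e-05).

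On the list of PPARα targets and fatty acid oxidation 3 of 35 tested genes rose (Decr1, Slc27a2 and Acaa1a), none fell, 30 had a positive L2FC, beside 0.716% that rose and 5333 of 10191 with a positive L2FC over all genes, and the median was 0.28, with 0.23 in batch 1 and 0.32 in batch 2. The ST assay called 5 of 30 (Cyp4a1, Acadvl, Acaa2, Decr1 and Slc27a2), beside 63 of 1760 over all genes. With 1 well left out the ST count was 3 to 6, being 3 without the first or second vehicle well of batch 1, the second vehicle well of batch 2 or the third acetaminophen well of batch 2, and the WT count was 2 to 4. Decr1, which reduces unsaturated intermediates in mitochondria, read 189, 249 and 210 CPM against 148, 139 and 150 CPM in batch 1 and 245, 191 and 216 CPM against 136, 146 and 170 CPM in batch 2. It did not overlap in either rat and had an L2FC of 0.54 (SE 0.12, adjusted p = 0.0035). Slc27a2, a fatty acid transporter and acyl-CoA synthetase, had an L2FC of 0.60 (SE 0.14, adjusted p = 0.00848), with 52.3, 78.2 and 67.6 CPM against 47.7, 58.9 and 46.2 CPM in batch 1, which overlapped, and 61.3, 72.1 and 76.6 CPM against 35.8, 42.0 and 50.7 CPM in batch 2. Cat, which breaks down the hydrogen peroxide of peroxisomes, was at an L2FC of 0.46.

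Cyp4a1, the fatty acid hydroxylase known as a sensitive PPARα target in the rat, passed in the ST assay but not in the WT assay with both batches in the fit, and is named after its values were seen. Its ST levels were 40.4, 54.6 and 69.5 CPM against 13.8, 9.28 and 10.7 CPM in batch 1 and 19.6, 33.8 and 33.1 CPM against 5.18, 7.05 and 10.8 CPM in batch 2. The wells separated in both rats, at an ST L2FC of 2.11 (adjusted p = 0.0013), while the WT value was 1.56 (adjusted p = 0.082) from levels of 6.94 to 9.24 CPM against 1.08 to 2.39 CPM in batch 1 and 2.46 to 4.67 CPM against 0.832 to 2.31 CPM in batch 2.

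**Figure D2:**
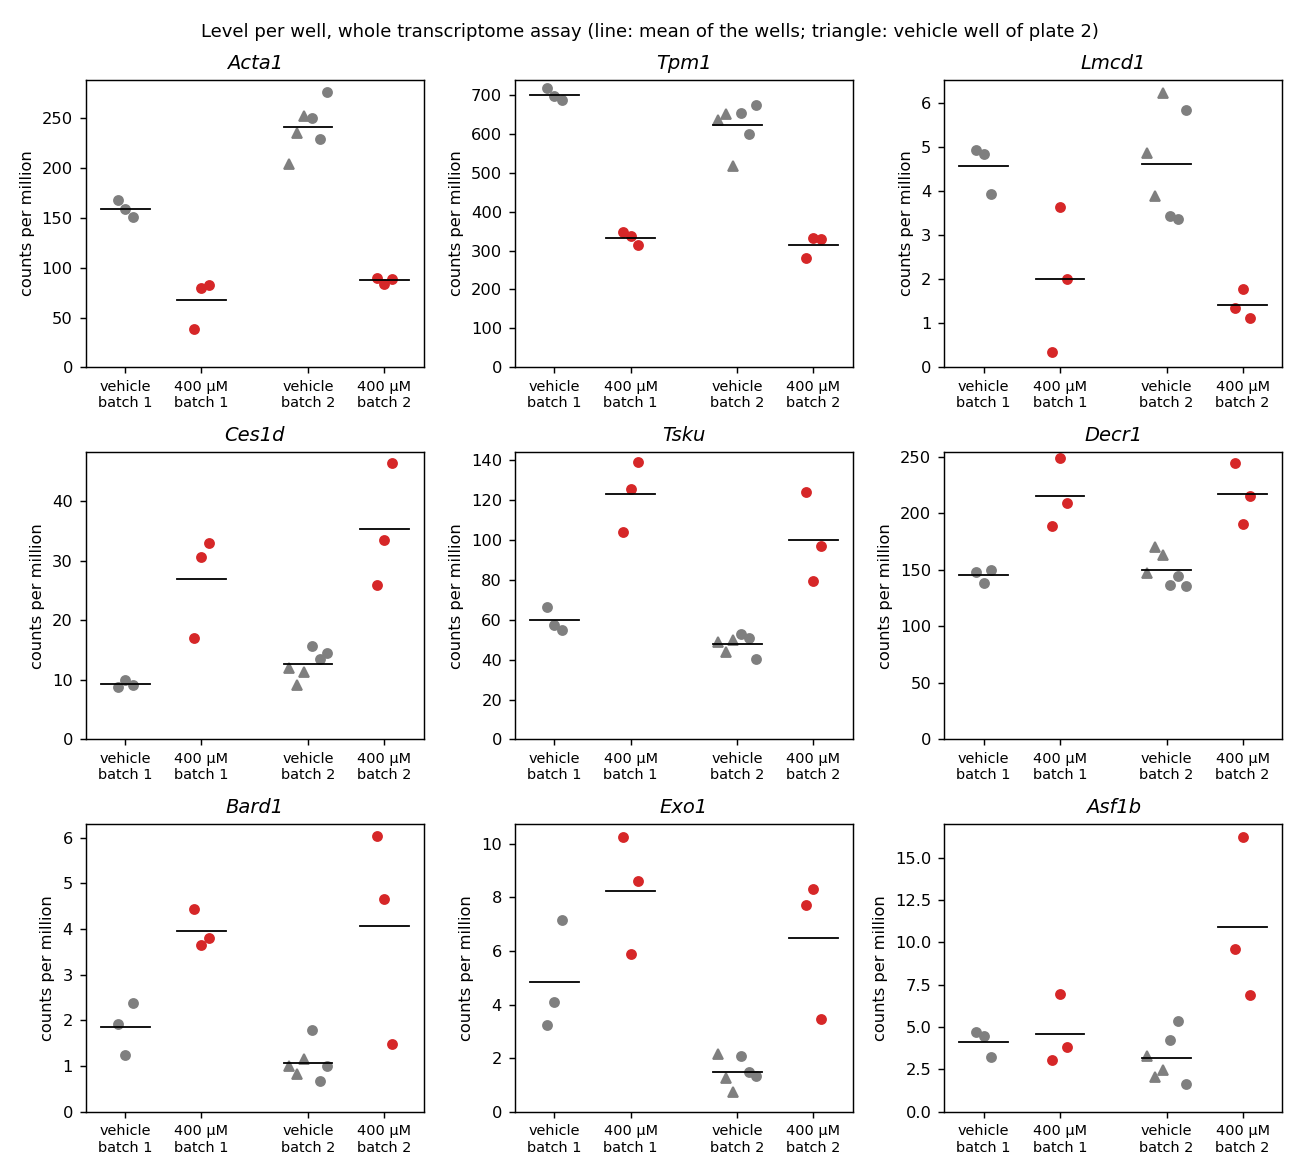
TMM-scaled CPM per well in the WT assay for 9 genes, vehicle and 400 µM acetaminophen side by side in each batch, with the mean as a line and vehicle wells of plate 2 as triangles; each axis starts at 0. Acta1 and Tpm1 wells under acetaminophen lie below, and Ces1d, Tsku and Decr1 wells above, every vehicle well of the same batch, while in batch 2 the third well of Bard1, at 1.48 CPM, is within the vehicle range.

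Other genes named by size or by both assays were of mixed kinds. Slc22a8, a transporter of organic anions, read 77.0, 142 and 124 CPM against 178, 162 and 187 CPM in batch 1 and 132, 95.2 and 113 CPM against 214, 235 and 262 CPM in batch 2, with no overlap and an L2FC of -0.89 (SE 0.15, adjusted p = 1.5e-05). Zfp354a, a zinc finger gene of the KRAB type, rose by an L2FC of 0.81 (SE 0.17), which was 1.11 in batch 1 and 0.38 in batch 2. LOC102549061 read 68.8, 71.0 and 52.2 CPM against 41.6, 35.9 and 53.5 CPM in batch 1 and 94.1, 93.8 and 49.0 CPM against 23.0, 28.3 and 34.8 CPM in batch 2, so that only the wells of batch 2 separated, and its L2FC was 1.09 (SE 0.24, adjusted p = 0.0035).

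Genes that fell by most in the WT assay beside the actin group were low in level. The natriuretic peptide gene Nppb had an L2FC of -1.20, with -0.40 in batch 1 and -1.93 in batch 2. Gfpt2, Aif1l, Scrn1, Foxp3 and Unc79 had L2FC between -1.05 and -1.53, and their highest vehicle value in batch 2 was 4.67 CPM. The WT call of Gfpt2 held in 3 of 15 fits with 1 well left out, and in the ST assay this gene did not pass, at -0.62 (adjusted p = 0.259). Foxp3, known as the defining factor of regulatory T cells, read 1.03, 0.694 and 1.40 CPM against 1.80, 3.57 and 2.90 CPM in batch 1, without overlap, and 0.335, 1.64 and 1.97 CPM against 1.65, 2.05 and 4.67 CPM in batch 2, with overlap. Without 1 well, adjusted p for this gene reached up to 0.185.

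The genes that handle acetaminophen gave no call in the WT assay with both batches in the fit. Of 29 tested genes on a list of its disposition (glucuronidation, sulfation, CYP activation, conjugation and efflux), 0 rose and 0 fell by edgeR and 0 passed by DESeq2, which is near the 1.38% called over all genes, 3 had an unadjusted p under 0.05, the median L2FC was 0.01, and the lowest adjusted p was 0.176, of the efflux pump Abcc2. In batch 2 by itself Abcc2 (WT L2FC 0.72, adjusted p = 0.00242) and the glutathione transferase Gstp1 (0.74, adjusted p = 0.0197) were higher by WT, and by ST the sulfotransferase Sult1b1 was higher (0.40, adjusted p = 0.0241) and the efflux pump Abcc3 lower (-0.49, adjusted p = 0.0328); none of these passed in the other assay, in batch 1 or with both batches, and over all genes 2.23% (WT) and 10.6% (ST) passed in batch 2. The ST assay called 2 of 25 with both batches, beside 5.06% of all its genes, with Gstm2 at -0.40 and GSTM7 at 0.83, glutathione transferases of 1 family of close copies whose counts can be split between them. Cyp2e1, which activates the drug, was low in these cultures at 2.34 to 6.64 CPM under acetaminophen and 2.68 to 11.2 CPM in vehicle wells. Its L2FC at 400 µM was -0.42 by WT (adjusted p = 0.739) and -0.41 by ST (adjusted p = 0.61), and neither passed.

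The stress pathway lists are short against the 1.38% of all genes called, so that a count of 0 is near that share and not a result about a list. On the list of glutathione synthesis and NRF2 targets 0 of 31 genes passed by edgeR or DESeq2 (5 at an unadjusted p under 0.05), with a median L2FC of -0.02 and a lowest adjusted p of 0.156 (Gpx2). None of 29 integrated stress response genes, 15 endoplasmic reticulum chaperones, 19 p53 targets, 22 immediate early genes, 7 AhR targets, 15 CAR and PXR targets or 32 respiratory chain genes passed in the WT assay by edgeR or DESeq2; in this order 2, 0, 3, 2, 1, 2 and 0 had an unadjusted p under 0.05. In the heat shock list 2 of 14 passed, in opposite directions: Hspb1, a small chaperone that protects actin filaments, fell with an L2FC of -0.59 and the mitochondrial chaperonin Hspd1 rose with 0.54. In the ST assay neither passed, with Hspb1 at -0.36 (adjusted p = 0.173) and Hspd1 at 0.38 (adjusted p = 0.0804), and the WT call of Hspd1 held in 4 of 15 fits with 1 well left out. Of 15 constitutive CYP2 genes Cyp2t1 alone passed, at -0.36 (adjusted p = 0.0483), and its call held in 3 of 15 fits with 1 well left out. None of 26 acute phase and inflammatory genes, 21 cholesterol synthesis genes, 19 fatty acid synthesis genes, 22 genes of glucose and amino acid metabolism, 11 of bile acid synthesis and transport, 7 of prostaglandin synthesis, 15 clock genes or 15 hepatocyte markers passed by either tool, and 5, 2, 0, 2, 1, 0, 1 and 2 of them had an unadjusted p under 0.05. The ST assay added Gadd45a (lower) and Ckap2 (higher) on the p53 list and Lcn2 and Cxcl10 (higher) on the acute phase list.

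The number of DEGs depended on which vehicle wells of batch 2 were used. The WT count of that batch was 40 against the 3 vehicle wells of the same plate and 388 against the 3 of the other plate (the latter chosen after seeing the data), compared with 227 against all 6. The ST count went the other way, with 164 against the same plate and 101 against the other, compared with 187. Against the wells of the same plate, the 73 genes that rose and the 68 that fell in the joint fit had WT medians of 0.94 and -0.63 in batch 2, compared with 0.92 and -0.66 against all 6 wells, and 17 and 10 of them passed. These genes were chosen by a fit that held the same wells, so their medians and signs are a description. In the joint fit with those 3 vehicle wells alone for batch 2, a setting chosen after seeing the data, 21 genes passed in all, with 0 of 20 on the cell cycle list, 2 of 51 on the replication list, 2 of 40 on the mitosis list, 5 of 43 on the actin list and 1 of 35 on the PPARα list; the list medians were then 0.53, 0.46, 0.60, -0.24 and 0.28.

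Against the plate mates, which shared the plate in both batches, 49 genes passed (0.481%), 35 higher and 14 lower. Of these 14, 4 were among the 21 tested cholesterol synthesis genes. The median L2FC of that list was -0.44 against plate mates, 0.08 for acetaminophen against vehicle and 0.59 for plate mates against vehicle. Of the 73 genes that rose against vehicle 67 kept their sign against plate mates and 23 passed, with the median L2FC going from 0.81 to 0.48; the plate mates themselves stood 0.27 above vehicle. Of the 68 that fell 66 kept their sign and 5 passed, the median going from -0.63 to -0.24 while plate mates stood 0.40 below vehicle (L2FC -0.40). The 3 comparisons share wells and are given side by side. How far the plate, or the plate mates' own chemicals, account for what they share with acetaminophen was not tested.

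Gene groups differed in this respect. The PPARα list had a median L2FC of 0.28 against vehicle, 0.01 against plate mates and 0.27 for plate mates against vehicle, and 0 of its genes passed against plate mates; the action of the plate mates' own chemicals on these genes and the plate cannot be told apart. Tsku had 1.13, 0.08 and 1.05 in the same order, Decr1 0.54, 0.01 and 0.54, and Cat -0.01 against plate mates. The actin list had -0.26, -0.11 and -0.19, and Tpm1 alone of its genes passed against plate mates in the WT assay (L2FC -0.51, adjusted p = 0.0491), where Acta1, at -0.68, had an adjusted p of 0.0704. In the ST assay, which did not test Tpm1, Acta1 (-0.74, adjusted p = 0.0197), Vil1 (-0.69, adjusted p = 0.0207) and Cnn2 (-0.55, adjusted p = 0.0101) passed against plate mates. The replication list had 0.55, 0.51 and 0.10, and 12 of its 51 genes passed against plate mates; the mitosis list had 0.72, 0.45 and 0.29 with 3 of 40. Bard1 (1.00, adjusted p = 0.0187), Exo1 (1.08, 0.0079 as adjusted p), Asf1b (0.99, 0.0053), Ube2t (1.14, 0.0256), Melk (1.04, 0.0481), LOC102549061 (0.91, 0.00566), Mcm4 (0.58, 0.00566) and Rfc5 (0.42, 0.0184) were among the genes that also passed as higher than plate mates in the WT assay. In batches 1 and 2 the L2FC against plate mates was 0.32 and 1.40 for Asf1b, 0.29 and 0.85 for Mcm4, and 0.14 and 0.66 for Rfc5. It was 0.84 and 1.17 for Bard1, 1.02 and 1.15 for Exo1, and 1.045 and 1.24 for Ube2t. Melk had 0.89 and 1.255, and LOC102549061 had 0.90 and 0.94. Ces1d, at 0.48 against plate mates, did not pass, and plate mates stood 1.05 above vehicle for it. Slc22a8 was at -0.29, Zfp354a at 0.16 and Nppb at -0.12 against plate mates, and none of these passed. For these genes, in this order, plate mates were at -0.60, 0.65 and -1.08 against vehicle.

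**Figure D3:**
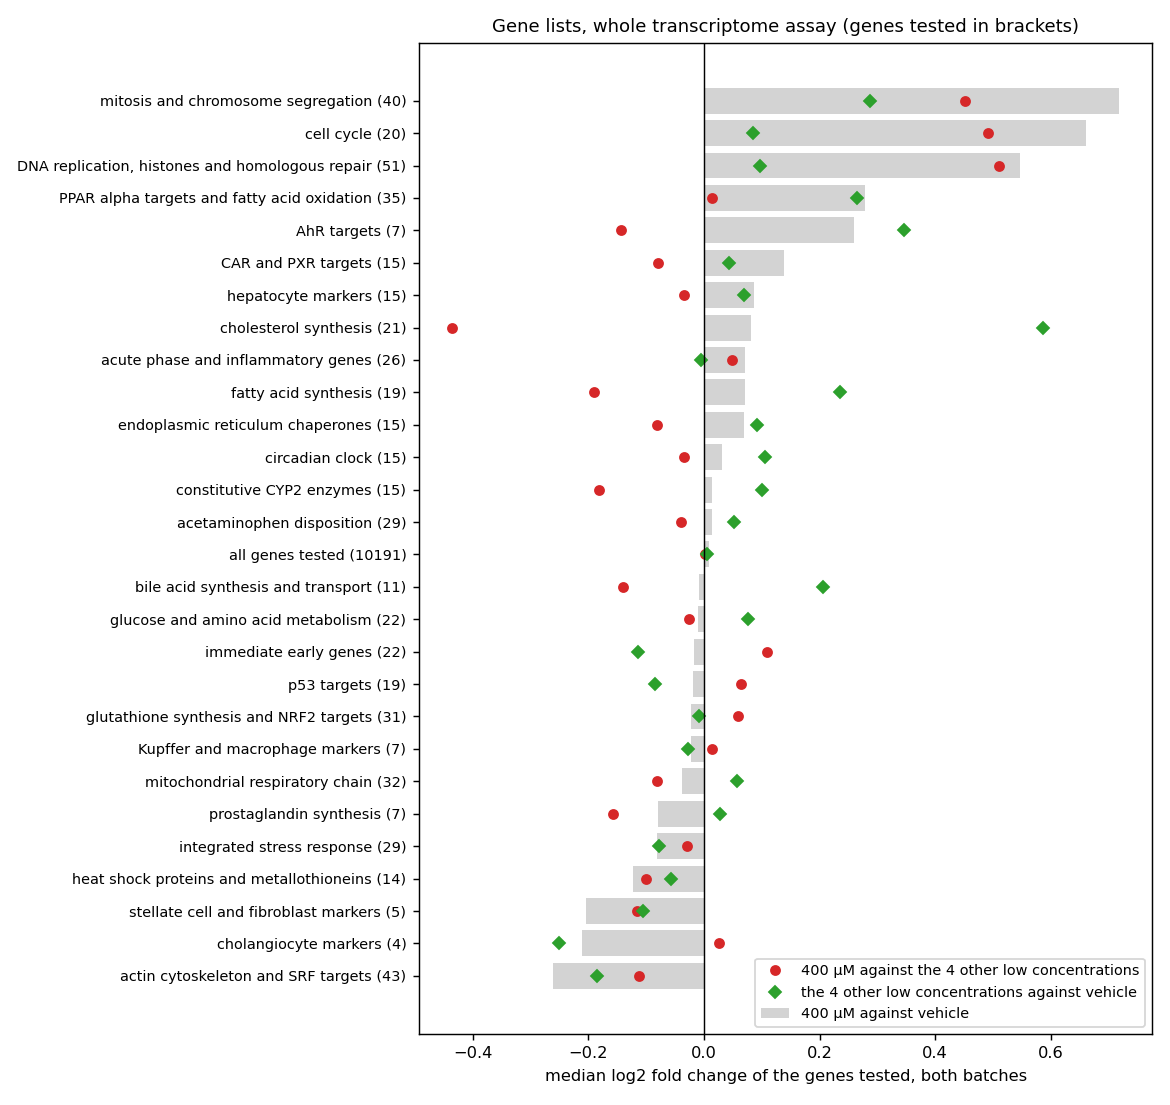
Median L2FC of the tested genes of each list in the WT assay. Bars give 400 µM acetaminophen against vehicle, red dots acetaminophen against the plate mates and green diamonds plate mates against vehicle; the replication list sits at 0.55 and 0.51 for the first and second, the PPARα list at 0.28 and 0.01.

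The higher concentration, 10000 µM, changed most of the transcriptome, with 8043 of 10191 WT genes (78.9%) different from vehicle and 7773 (76.3%) different from 400 µM. Of the 73 genes that rose at 400 µM, 34 were higher, 30 lower and 9 not called at 10000 µM; of the 68 that fell, 46 were lower, 11 higher and 11 not called. These comparisons use the same vehicle wells. The direct test between concentrations uses no vehicle wells, but it uses the 400 µM wells by which these genes were chosen. It found 57 of the 73 and 59 of the 68 to differ, beside 76.3% of all genes, and these counts are a description.

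Of the 43 actin genes 30 were lower and 6 higher than vehicle at 10000 µM, where 4088 of all 10191 genes were lower and 3955 higher. Tpm1 went from -1.05 at 400 µM to -4.83 at 10000 µM and Tagln from -1.48 to -2.53, each lower than at 400 µM in the direct test (adjusted p = 4.28e-43 and 0.000934). Acta1 was at -0.24 against vehicle at 10000 µM, 1.25 above its 400 µM level (SE 0.24, adjusted p = 9.31e-07), with 223, 177 and 171 CPM in batch 1 and 95.9, 251 and 204 CPM in batch 2. Vil1 dropped to between 0 and 1.40 CPM.

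Tsku, Decr1 and Slc27a2, higher at 400 µM, were below vehicle at 10000 µM. Tsku was at 3.46 to 6.92 CPM in all 6 wells, which is an L2FC of -3.15 against vehicle, Decr1 was at -2.28 and Slc27a2 at -2.70. Cat was at -0.01 and Ces1d at -0.43 (adjusted p = 0.0901), neither of which passed, and Ces1d differed from 400 µM by -1.96 (SE 0.25).

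Replication and mitosis genes went in both directions. Bard1 and Ube2t rose further, to L2FC of 2.82 and 2.63, and Aurka to 1.68, while Exo1 was at -1.82, Aurkb at -1.56 and Asf1b at -1.02 against vehicle. Over the replication list 25 of 51 genes were higher and 12 lower than vehicle at 10000 µM, beside 3955 and 4088 of 10191 over all genes. On the mitosis list 8 of 40 were higher and 20 lower, and on the cell cycle list 4 of 20 were higher and 10 lower.

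**Figure D4:**
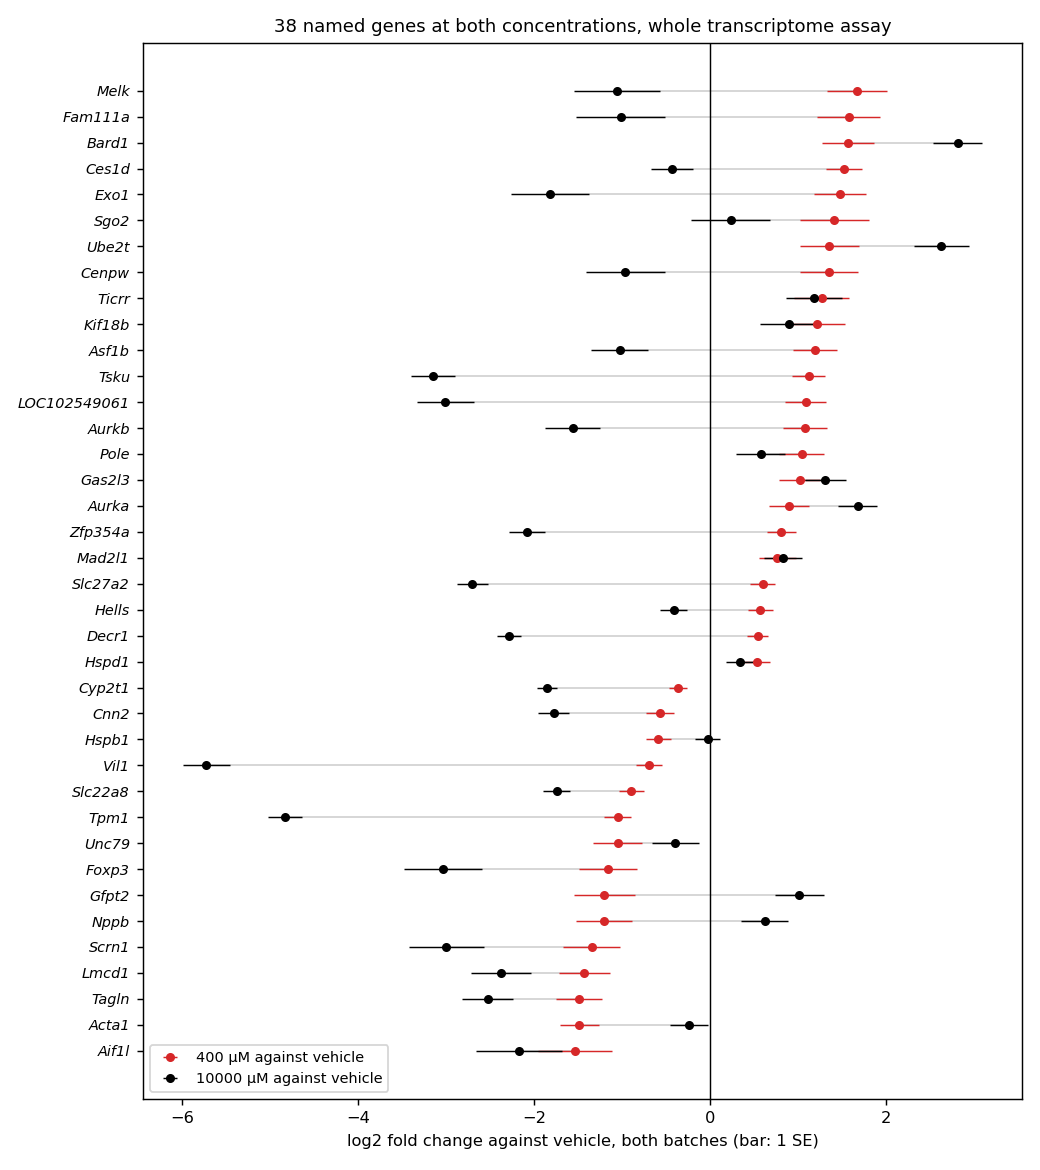
L2FC against vehicle, with bars of 1 SE, at 400 µM and at 10000 µM in the WT assay for the 38 named genes. Tsku is at 1.13 and -3.15, Tpm1 at -1.05 and -4.83, and Bard1 at 1.57 and 2.82.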

How the data were processed

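The authors aligned the reads to rn6 with STAR 2.5.3a, allowing mismatches, and deposited raw read counts per probe and well, without normalization, for 2654 ST and 22253 WT probes. Counts of probes of 1 gene symbol were added here (20946 WT and 2604 ST symbols), and a gene was tested where its counts averaged 10 or more over all wells of the assay, which left 10191 by WT and 1760 by ST. Library sizes were scaled by TMM and tested with edgeR 4.0.16 in R 4.3.3 (quasi-likelihood test, all treatments of the assay as groups, batch as a term), with Benjamini-Hochberg adjustment over all genes tested and a threshold of 0.05. Each batch was also fitted by itself, and a treatment by batch term tested the difference between batches. SE is the L2FC divided by the root of the F statistic. CPM are counts per 1000000 of the scaled library size.

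Samples were grouped by their labels of chemical, concentration, assay and batch. On simulated WT counts of 10191 genes with 200 changed by a fold of 2, 183 were recovered and 12 of 195 calls were false. For ST, with 1760 genes, 194 were recovered and 14 of 208 calls were false. The simulated counts held no difference between plates and an equal change in both batches. These rates therefore do not carry over to the measured comparison with vehicle. No 2 wells held identical counts. Depth was 2709504 to 8488346 counts in the WT and 984283 to 2056077 in the ST libraries used; genes of a few CPM rest on few reads, and counts are of PCR products without molecular identifiers.

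Named genes were up to 16 genes called by both assays with the same sign in each batch and assay, the 10 largest rises and 10 largest falls by WT L2FC among DEGs of the same sign in both batches with a mean of 10 counts in the wells compared, and up to 2 DEGs of lowest p per list; others are named from counts of DEGs after their values were seen. The members and lists were chosen with earlier results of these data known. DESeq2 1.42.0, RLE size factors, no filter, other groups in the fit, other reference wells and each well left out were tried as alternatives. Promoters were matched by symbol to a RefSeq table of GRCr8; probe sequences were not used here.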

Additional observations from a re-analysis of the deposited data

Results flagged for a closer look

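In 7 of 60 groups of 6 vehicle wells of batch 2 checked for the named genes, 1 well stood apart from the other 5 by a larger share of the range than Dixon's 95% limit. Chance marks about 1 group in 20. In the WT assay Pole was at 0.536 CPM in well G08 of plate 3, against 1.5 to 2.08 CPM in the others, and Gas2l3 at 2.67 CPM in well G09 of plate 3, against 4.56 to 5.50 CPM. Hells was at 15.9 CPM in well G08 of plate 2, against 18.2 to 18.7 CPM. Sgo2 was at 0.145 CPM in well G09 of plate 2, against 1.10 to 1.52 CPM. Unc79 was at 3.19 CPM in well G08 of plate 2, against 2.06 to 2.28 CPM, and Hspb1 at 24.7 CPM in well G08 of plate 3, against 31.3 to 34.5 CPM. In the ST assay Mad2l1 was at 28.8 CPM in well G08 of plate 3, against 16.9 to 21.0 CPM.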

How the results depend on the processing

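No paired analysis was possible because the labels give well positions and no replicate numbers shared by the groups. The limits are the 2 rats, their separate library and sequencing runs, the plate of batch 1 and the shallow first well of that batch. Of 836 values of the 38 named genes under other settings, 644 kept the call, 192 lost it and 0 changed direction. These genes were chosen for the same sign in both batches and most settings leave out 1 well, so the lack of reversals is no test. Against plate mates 31 of the 38 lost the call, and with batch 2 vehicle of the same plate alone 27 did.

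The joint WT count of 141 became 49 against plate mates, 234 with treatment and batch combined as groups and 21 with batch 2 vehicle of the same plate alone (chosen after seeing the data); the joint ST count of 89 became 55, 139 and 42, and the 24 genes of both assays 11, 54 and 8. In batch 1 the 29 WT genes became 88 with DESeq2, 169 without a filter, 10 with the compared wells alone and 44 for probes, and the 8 ST genes 3 with the compared wells alone and 15 against plate mates. In batch 2 the 227 WT genes became 118 with the compared wells alone, 40 against vehicle of the same plate and, chosen after seeing the data, 388 against vehicle of the other plate; the 187 ST genes became 85 with the compared wells alone, 164 against vehicle of the same plate and 101 against the other. The 9 genes that differed between batches became 0 with the compared wells alone. The cause of these shifts was not tested.

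With 1 well left out the counts ran from 77 to 164 (WT) and 41 to 103 (ST) in the joint fits, 9 to 73 and 1 to 9 in batch 1, 65 to 242 and 126 to 183 in batch 2, and 17 to 37 for both assays. Moves of over 1.5 times came in the joint WT fit without acetaminophen well 1 (77) or vehicle well 1 (93) of batch 2, and in the joint ST fit without acetaminophen well 1 of batch 2 (41). In batch 1 the WT count was 19, 73 and 9 without acetaminophen wells 1 to 3 and 12, 13 and 56 without vehicle wells 1 to 3, and the ST count 1 and 2 without acetaminophen wells 2 and 3 and 5 and 3 without vehicle wells 1 and 3. In batch 2 the WT count was 65 without acetaminophen well 2 and 147 and 148 without vehicle wells 1 and 2. The 24 genes became 37 without vehicle well 3 of batch 1.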

Other observations

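In the WT assay 9 genes (0.0883%) had an effect of 400 µM acetaminophen that differed between the batches by the treatment by batch term. In this test 1409 had an unadjusted p under 0.05, and with the compared wells alone the count was 0. Bach2, a transcriptional repressor, was at an L2FC of 0.41 in batch 1 and -1.44 in batch 2, and the cytochrome P450 Cyp2a3 at 0.36 and -1.0. The linker histone Hist1h1d was at -0.38 and 1.16, Lgals2 at -0.39 and 0.63, and Naca, of the nascent polypeptide complex, at -0.88 and 0.36. Pitpna was at 0.32 and -0.43, Pxmp4 at 0.68 and -0.25, and Sigirr at 0.35 and -0.45. Rfc5 was the only joint DEG among them. In the ST assay no gene passed this test and 128 had an unadjusted p under 0.05.

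The chemokine gene Cxcl10, an interferon-induced attractant of T cells named after its values were seen, was a DEG of the ST assay in each rat. Its ST levels were 286, 272 and 233 CPM against 110, 178 and 142 CPM in batch 1 and 281, 402 and 270 CPM against a range of 95.5 to 161 CPM in batch 2. The wells did not overlap in either rat, with an ST L2FC of 1.17 (adjusted p = 0.02) and a WT L2FC of 1.12 (adjusted p = 0.0794).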
